A study of Homo sapiens with 24 samples.

Results

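Cystine uptake and the ATF4 stress response were followed through 10 genes of the 25161 gene symbols in the table: the transporter subunits SLC7A11, SLC3A2 and SLC7A5, the transcription factor ATF4, and its partners and targets ASNS, PSAT1, CHAC1, TRIB3, DDIT3 and SESN2. The genes were selected by symbol, and each had 1 row in the table. They were selected with earlier results on Ento+AZD against DMSO known. The values of that comparison, and of Ento+AZD against either single agent, which reuse the same Ento+AZD arrays, are therefore only a description of these 10 genes. Later adjusted p values and counts of calls that use these arrays are no independent evidence either. This holds for the departure from additivity and for the difference between the lines under Ento+AZD.

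SLC7A11 is the transport subunit of system xc-, which exchanges intracellular glutamate for extracellular cystine, and cystine is the source of cysteine for glutathione. SLC3A2 is the heavy chain that carries SLC7A11, and likewise the leucine and tryptophan transporter SLC7A5, to the cell surface. When amino acids are short or proteins misfold in the endoplasmic reticulum, kinases phosphorylate eIF2 alpha, translation of ATF4 rises, and ATF4 with partners such as C/EBP proteins and CHOP, the product of DDIT3, binds composite elements at genes of amino acid uptake and synthesis. ATF4 is regulated to a large part in translation, and arrays measure only its transcript.

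The arrays compared SU-DHL-4, a diffuse large B-cell lymphoma line, with DG-75, a line from a Burkitt lymphoma. For 72 h the cells received DMSO as solvent control, 1 µM Entospletinib (Ento), an inhibitor of the B-cell receptor kinase SYK, 0.01 µM AZD5153 (AZD), a bivalent inhibitor of BET bromodomain proteins, or both at these doses (Ento+AZD), with 3 biological replicates in each of the 8 groups. All groups were grown in the same serum-containing medium. Each lymphoma type was represented by 1 line, so line and lymphoma type cannot be told apart.

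Values are expression levels after robust multi-array averaging, a normalization that summarises the probes of a transcript. They were taken as log2, the scale this method gives, since the sources used here do not state the base, and every fold and percentage rests on it. Array medians lay between 4.89 and 5.14, and replicate arrays correlated across all rows with r between 0.981 and 0.992. Of the B-cell markers, 6 of 6 lay above the array median in both lines, against 0 of 3 T-cell markers, 1 of 3 markers of monocytes and macrophages (CSF1R) and 1 of 3 epithelial markers (KRT19), while fibroblast markers lay above it in 3 of 3 cases in SU-DHL-4, with 2 of 3 in DG-75. DCN, the highest fibroblast marker in SU-DHL-4 at a mean of 9.14, ranged from 8.87 to 9.53 between the treatment means of that line, and its part in the results was not tested. Because RNA was taken from whole cultures, fewer cells of a type and less RNA per cell cannot be told apart. Array replicate 2 was the lowest of the 3 for 9 of the 10 genes in SU-DHL-4 Ento and for 10 of 10 in SU-DHL-4 Ento+AZD, where 50.9% and 41.4% of all rows had that order. The replicate number was kept as a block in the fits within each line.

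SLC7A11 had its highest levels in DMSO-treated DG-75 cells and its lowest in SU-DHL-4 cells exposed to both inhibitors. In SU-DHL-4 the replicates were at 7.71, 7.62 and 8.02 under DMSO, at 7.21, 6.84 and 6.99 under Ento, at 7.18, 6.58 and 6.64 under AZD, and at 6.01, 5.94 and 6.01 under Ento+AZD. All treated arrays of this line lay below all DMSO arrays, the Ento and AZD arrays overlapped, and the Ento+AZD arrays lay below both. In DG-75 the levels were 8.49, 8.43 and 8.56 under DMSO, 8.43, 8.09 and 8.35 under Ento, 7.53, 8.14 and 7.52 under AZD, and 7.24, 7.48 and 7.28 under Ento+AZD. Here DMSO and Ento nearly touched at 8.43, whereas the AZD arrays lay below DMSO, with replicate 2 inside the range of the Ento arrays, and the Ento+AZD arrays were the lowest.

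The order of the 8 groups by mean SLC7A11 was DG-75 DMSO (8.50 ± 0.06, SD, n = 3), DG-75 Ento (8.29 ± 0.18), SU-DHL-4 DMSO (7.78 ± 0.21), DG-75 AZD (7.73 ± 0.36), DG-75 Ento+AZD (7.34 ± 0.13), SU-DHL-4 Ento (7.01 ± 0.18), SU-DHL-4 AZD (6.80 ± 0.33) and SU-DHL-4 Ento+AZD (5.98 ± 0.04). Neighbours whose arrays overlapped were SU-DHL-4 DMSO with DG-75 AZD, and SU-DHL-4 Ento with SU-DHL-4 AZD.

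A gene was called changed where limma gave an adjusted p below 0.05 over all rows and the log2 fold change exceeded 1 in size. The single-agent comparisons share their DMSO arrays with the comparison known at selection, and are not independent of it. AZD alone lowered SLC7A11 in SU-DHL-4 by the p criterion, with a log2 fold change of -0.98 ± 0.17 (SE, adjusted p = 0.0396), which left 50.7% of the DMSO level and missed the fold criterion, as part of 0.207% of rows that were lower by p alone. The adjusted p of this difference lay between 0.0544 and 0.737 in the 9 fits that each left out 1 of the compared arrays or 1 replicate number and thus missed 0.05 in each of them. In DG-75 the AZD difference was -0.77 ± 0.18 (adjusted p = 0.0953). In a fit over both lines AZD lowered SLC7A11 by the p criterion, with -0.87 ± 0.14 (adjusted p = 0.00195). Values were lower in 6 of 6 same-numbered differences, as for 10.1% of all rows, and the numbers are not shown to pair the samples in DG-75.

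Ento alone gave SLC7A11 differences of -0.77 ± 0.17 in SU-DHL-4 (adjusted p = 0.219) and -0.21 ± 0.18 in DG-75 (adjusted p = 1.00). Under Ento+AZD the SLC7A11 level was 28.8% of that under DMSO in SU-DHL-4, a log2 fold change of -1.80 ± 0.17, and 44.7% in DG-75, a log2 fold change of -1.16 ± 0.18. With 1 array or replicate number left out, the change lay between -1.93 and -1.65 in SU-DHL-4, with -1.27 to -1.09 in DG-75. Sizes for SLC7A11 under Ento+AZD in SU-DHL-4 are not exact, since its mean of 5.98 was near that of the fibroblast marker COL1A1 (5.94). The level under Ento+AZD minus that under Ento alone was -1.03 ± 0.17 in SU-DHL-4, between -1.10 and -0.95 with 1 array or number left out, and -0.95 ± 0.18 in DG-75, between -1.14 and -0.83. Relative to AZD alone the differences were -0.82 ± 0.17 in SU-DHL-4, against -0.40 ± 0.18 in DG-75. The comparisons within a line share their DMSO or Ento+AZD arrays and are not independent of each other.

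**Figure D1:**
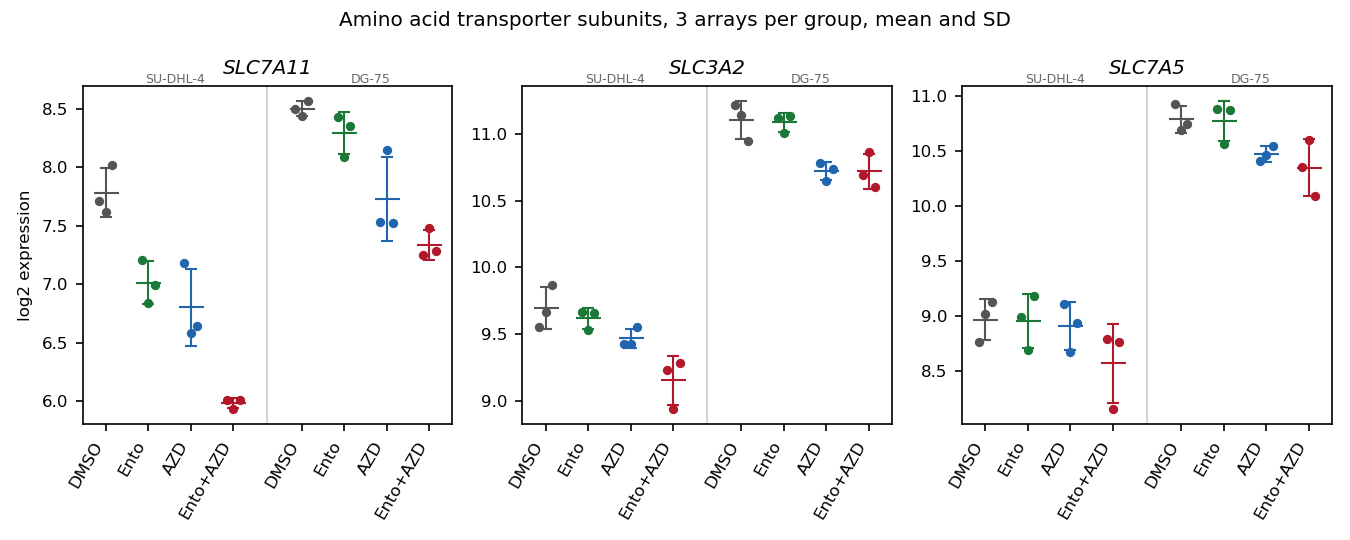
Log2 expression (vertical axis) of SLC7A11, SLC3A2 and SLC7A5 in the 8 groups, with 1 point per array, the mean as a horizontal mark and bars of 1 SD. SLC7A11 reached its lowest mean, 5.98, in SU-DHL-4 under Ento+AZD, and all DG-75 arrays of SLC3A2 and SLC7A5 lay above all SU-DHL-4 arrays.

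SLC3A2, the heavy chain shared by both transporters, and SLC7A5, the leucine transporter, differed more between the lines than between treatments. The SLC3A2 replicates of SU-DHL-4 were at 9.55, 9.67 and 9.87 under DMSO, 9.66, 9.53 and 9.66 under Ento, 9.43, 9.42 and 9.55 under AZD, and 9.23, 8.94 and 9.28 under Ento+AZD. In DG-75 they were at 11.22, 11.14 and 10.95 under DMSO, 11.12, 11.01 and 11.13 under Ento, 10.78, 10.65 and 10.74 under AZD, and 10.70, 10.86 and 10.60 under Ento+AZD. Both lines thus had every AZD and Ento+AZD array below every DMSO array, with Ento overlapping DMSO. In SU-DHL-4, though, the highest AZD array (9.551) and the lowest DMSO array (9.553) nearly touched. The AZD differences were -0.23 ± 0.14 in SU-DHL-4 (adjusted p = 0.571), -0.38 ± 0.13 in DG-75 (adjusted p = 0.216) and -0.31 ± 0.09 over both lines (adjusted p = 0.0509), none of which passed. Under Ento+AZD the difference from DMSO was -0.55 ± 0.14 in SU-DHL-4, with -0.38 ± 0.13 in DG-75.

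For SLC7A5 the SU-DHL-4 replicates were at 8.76, 9.01 and 9.12 under DMSO, at 9.11, 8.67 and 8.93 under AZD, and at 8.79, 8.15 and 8.76 under Ento+AZD, and both treated sets overlapped DMSO. The DG-75 replicates were at 10.93, 10.69 and 10.75 under DMSO, at 10.41, 10.47 and 10.55 under AZD, and at 10.36, 10.60 and 10.09 under Ento+AZD, and both sets of treated arrays lay below the DMSO arrays. Means under Ento were 8.95 in SU-DHL-4, with 10.77 in DG-75, close to those under DMSO at 8.97 and 10.79. The SLC7A5 difference under AZD was -0.06 ± 0.17 in SU-DHL-4 (adjusted p = 0.934), against -0.32 ± 0.16 in DG-75 (adjusted p = 0.435).

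ATF4, the transcription factor at the centre of the response, showed small differences on a scale where the lines stood well apart. In SU-DHL-4 its replicates were at 10.00, 9.75 and 9.95 under DMSO, 10.00, 9.41 and 10.08 under Ento, 9.77, 9.29 and 9.77 under AZD, and 9.66, 9.10 and 9.68 under Ento+AZD. Replicate 2 was the lowest array in each of the 4 groups, and only the Ento+AZD group did not overlap the DMSO group. The DG-75 replicates were at 10.82, 10.66 and 10.60 under DMSO, 10.85, 10.74 and 10.65 under Ento, 10.43, 10.39 and 10.32 under AZD, and 10.41, 10.52 and 10.30 under Ento+AZD, so that the AZD and Ento+AZD arrays lay below the DMSO arrays. Over both lines AZD lowered the ATF4 transcript by the p criterion, with -0.30 ± 0.08 (adjusted p = 0.0347) or 81.3% of DMSO. The transcript was lower in 6 of 6 same-numbered differences, as were 10.1% of all rows. Neither line alone passed (adjusted p = 0.463 and 0.277). The Ento+AZD difference was -0.42 ± 0.14 in SU-DHL-4, with -0.28 ± 0.12 in DG-75.

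ASNS, asparagine synthetase, and PSAT1, the aminotransferase of serine synthesis, stand for the biosynthetic targets of ATF4. CHAC1 degrades glutathione. To show the kind of element through which ATF4 acts, the 250 bases before the start sites of ASNS and CHAC1 are given, with the match to the C/EBP-ATF response element in capitals (RefSeq, GRCh38.p14, 5′ to 3′ on the gene's strand). They span chr7:97872409-97872658 on the minus strand for ASNS and chr15:40953221-40953470 on the plus strand for CHAC1.
ASNS: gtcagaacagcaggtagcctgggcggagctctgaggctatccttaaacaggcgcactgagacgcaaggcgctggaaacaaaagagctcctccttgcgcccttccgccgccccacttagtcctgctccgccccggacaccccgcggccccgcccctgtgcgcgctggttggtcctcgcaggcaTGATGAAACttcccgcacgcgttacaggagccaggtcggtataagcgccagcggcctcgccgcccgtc
CHAC1: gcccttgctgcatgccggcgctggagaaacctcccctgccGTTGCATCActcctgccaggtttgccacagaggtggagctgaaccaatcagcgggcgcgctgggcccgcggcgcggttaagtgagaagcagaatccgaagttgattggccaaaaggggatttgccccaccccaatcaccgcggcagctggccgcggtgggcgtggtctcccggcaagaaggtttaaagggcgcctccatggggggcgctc
The letters searched were TGATGNAAN on both strands. In ASNS the match began at -68 relative to the start, and in CHAC1 it lay on the opposite strand from -210 to -202. The genes other than SLC7A11 had 16 promoter entries, and 3 of the 16 held a match in the window from 250 bases before to 50 bases after the start, those of ASNS and CHAC1 before it and of SLC3A2 after it, beside 3.61% of 35116 such promoters. An E-box with the letters CACGTG, a binding sequence of MYC and related factors, was found in 3 of the 16, of SLC7A5 and ATF4 (7.26% of all promoters), and TGACNNNGC, the core of the antioxidant response element, in 5 of the 16, of SLC3A2, SLC7A5 and TRIB3 (13.3% of all promoters). These matches describe letters in a window and say nothing about binding in these cells.

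In DG-75 the ASNS replicates were at 10.92, 10.60 and 10.83 under DMSO, 10.90, 10.74 and 10.59 under Ento, 10.08, 10.36 and 10.26 under AZD, and 9.99, 10.20 and 10.36 under Ento+AZD. The AZD and Ento+AZD arrays lay below the DMSO and Ento arrays, with an AZD difference of -0.55 ± 0.16 (adjusted p = 0.145) and an Ento+AZD difference of -0.60 ± 0.16. In SU-DHL-4 the ASNS replicates were at 9.35, 9.18 and 9.70 under DMSO, 9.27, 8.47 and 8.998 under Ento, 8.89, 9.19 and 9.50 under AZD, and 9.16, 8.91 and 9.23 under Ento+AZD, and all 4 groups overlapped. The SU-DHL-4 difference was -0.50 ± 0.19 under Ento (adjusted p = 0.513), -0.22 ± 0.19 under AZD (adjusted p = 0.714) and -0.32 ± 0.19 under Ento+AZD.

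PSAT1 followed SLC7A11 most closely among the other 9 genes over the 24 arrays of both lines. Its SU-DHL-4 replicates were at 8.98, 9.14 and 9.22 under DMSO, 9.01, 8.55 and 8.99 under Ento, 8.90, 8.39 and 8.61 under AZD, and 8.40, 7.99 and 8.29 under Ento+AZD. In DG-75 they were at 10.99, 10.97 and 10.74 under DMSO, 11.02, 10.89 and 11.04 under Ento, 10.08, 10.32 and 10.39 under AZD, and 10.19, 10.64 and 9.98 under Ento+AZD. AZD and Ento+AZD arrays lay below the DMSO arrays in both lines. AZD lowered PSAT1 over both lines by the p criterion, with -0.56 ± 0.12 (adjusted p = 0.0121), and the single-line differences of -0.48 ± 0.16 in SU-DHL-4, with -0.64 ± 0.17 in DG-75, did not pass (adjusted p = 0.275 and 0.121). Under Ento+AZD the PSAT1 level was 54.2% of DMSO in SU-DHL-4, with 64.6% in DG-75.

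CHAC1 lay near the array median in SU-DHL-4, with replicates at 5.03, 4.88 and 5.63 under DMSO, 5.25, 3.93 and 5.26 under Ento, 4.80, 4.16 and 4.78 under AZD, and 5.01, 4.64 and 4.67 under Ento+AZD. Only the AZD arrays were all below the DMSO arrays, and replicate 2 was again the lowest in each group. The DG-75 replicates were at 7.33, 7.54 and 7.26 under DMSO, 7.58, 7.32 and 7.46 under Ento, 6.66, 6.72 and 7.01 under AZD, and 7.07, 7.02 and 7.09 under Ento+AZD. Here the AZD arrays were lowest and the Ento+AZD arrays lay between AZD and DMSO without overlap. Ento+AZD arrays above all AZD arrays were found for 3.81% of all rows. Over both lines AZD lowered CHAC1 by the p criterion (-0.59 ± 0.14, adjusted p = 0.0209). The Ento+AZD difference was -0.41 ± 0.23 in SU-DHL-4, with -0.32 ± 0.15 in DG-75. Sizes that use SU-DHL-4 are not exact, since its CHAC1 means, from 4.58 to 5.18, lay near or below the array medians.

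TRIB3, a pseudokinase that restrains ATF4 and AKT, had the largest AZD difference of the 10 genes in DG-75. Its DG-75 replicates were at 7.52, 7.86 and 6.98 under DMSO, 7.43, 7.80 and 7.12 under Ento, 6.44, 6.65 and 6.58 under AZD, and 6.82, 6.75 and 6.83 under Ento+AZD, with both AZD-containing groups below the others. In SU-DHL-4 they were at 6.55, 6.67 and 6.82 under DMSO, 6.59, 6.29 and 6.51 under Ento, 6.46, 6.11 and 6.03 under AZD, and 6.35, 5.61 and 5.99 under Ento+AZD, again with both AZD-containing groups below DMSO. AZD gave -0.89 ± 0.19 in DG-75 (adjusted p = 0.0680) and -0.48 ± 0.17 in SU-DHL-4 (adjusted p = 0.323), and lowered TRIB3 over both lines by the p criterion, with -0.69 ± 0.14 (adjusted p = 0.00741). The Ento+AZD difference was -0.66 ± 0.19 in DG-75 and -0.69 ± 0.17 in SU-DHL-4. The latter size is not exact, since the TRIB3 mean of 5.98 was near that of COL1A1 (5.94) in the same group.

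In DG-75 SESN2 did not follow the other genes, and DDIT3 did not follow them under Ento+AZD. DDIT3, which encodes CHOP, was at 6.475, 7.04 and 6.53 under DMSO, 6.40, 6.466 and 6.33 under Ento, 6.36, 6.62 and 6.41 under AZD, and 6.83, 6.64 and 6.90 under Ento+AZD in that line. The Ento+AZD arrays overlapped DMSO and lay above the Ento and AZD arrays, with 0.39 ± 0.16 against Ento and 0.33 ± 0.16 against AZD. These orders were found for 4.65% and 3.81% of all rows. In SU-DHL-4 the DDIT3 replicates were at 6.76, 5.94 and 6.81 under DMSO, 7.09, 5.95 and 6.36 under Ento, 6.26, 5.94 and 5.97 under AZD, and 6.33, 5.81 and 5.96 under Ento+AZD. All 4 groups overlapped, and replicate 2 was the lowest in each. The DDIT3 difference under Ento+AZD was -0.47 ± 0.19 in SU-DHL-4, against 0.11 ± 0.16 in DG-75. Under AZD it was -0.45 ± 0.19 in SU-DHL-4 (adjusted p = 0.396) and -0.22 ± 0.16 in DG-75 (adjusted p = 0.617) by limma. The SU-DHL-4 sizes are not exact, since the AZD and Ento+AZD means of 6.06 and 6.03 were near those of COL1A1 (5.86 and 5.94).

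SESN2, sestrin 2, a stress-induced inhibitor of mTORC1 signalling that senses leucine, was at 7.12, 7.13 and 7.14 under DMSO in DG-75, at 7.42, 7.25 and 7.29 under Ento, at 7.54, 7.37 and 7.37 under AZD, and at 7.82, 7.33 and 7.28 under Ento+AZD. Every treated DG-75 array was above every DMSO array, by 0.19 ± 0.14 under Ento, 0.30 ± 0.14 under AZD (adjusted p = 1.00 and 0.379) and 0.35 ± 0.14 under Ento+AZD, where 3.09%, 4.5% and 4.79% of all rows had that order. The SU-DHL-4 replicates were at 6.53, 6.65 and 6.67 under DMSO, 6.605, 6.49 and 6.49 under Ento, 6.36, 6.71 and 6.61 under AZD, and 6.42, 6.29 and 6.56 under Ento+AZD, and all overlapped DMSO. Here Ento+AZD gave a SESN2 difference of -0.19 ± 0.15.

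**Figure D2:**
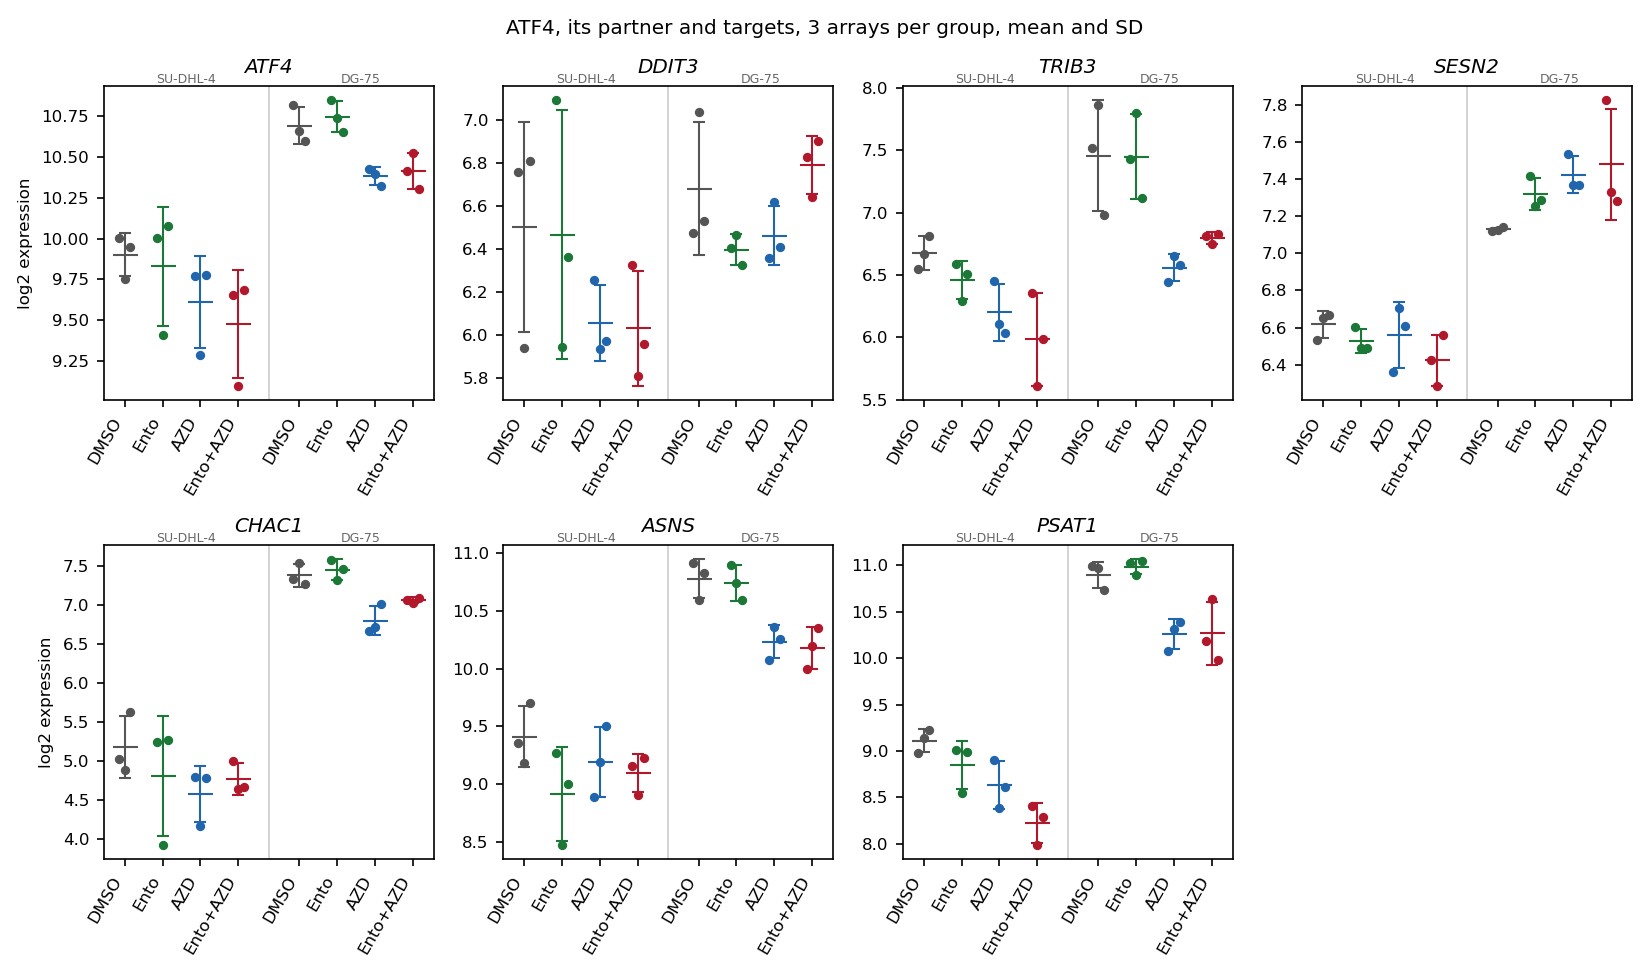
Log2 expression (vertical axis, scaled per gene) of ATF4, DDIT3, TRIB3, SESN2, CHAC1, ASNS and PSAT1 in the 8 groups, with 1 point per array, the mean and bars of 1 SD. The AZD and Ento+AZD arrays of DG-75 lay below DMSO for ATF4, TRIB3, CHAC1, ASNS and PSAT1, and above it for SESN2, from 7.12 to 7.14 under DMSO to 7.28 or more.

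Across the 10 genes, AZD alone called 0 in either line by limma, where 0.18% of all rows were called lower in SU-DHL-4, with 0.164% in DG-75. At an unadjusted p under 0.05 there were 5 of 10 in SU-DHL-4, with 7 of 10 in DG-75, among 2935 and 3537 of all 25575 rows. The AZD arrays lay below the DMSO arrays without overlap for 5 of 10 genes in SU-DHL-4, with 8 of 10 in DG-75, against 12.9% and 14.6% of all rows. The median log2 difference of the 10 genes was -0.37 for SU-DHL-4 and -0.47 for DG-75, beside -0.08 and -0.06 over all rows. Differences were below 0 for 10 of 10 genes in SU-DHL-4 (63.9% of rows), although SLC7A5 and SESN2 turned to above 0 when array medians were equalized, and for 9 of 10 in DG-75 (60.5% of rows) under each scaling. Over both lines AZD called 0 of the 10 genes lower by limma (0.25% of rows), with 8 of 10 at an unadjusted p under 0.05 (4592 of all rows), and 5 of 10, SLC7A11, ATF4, CHAC1, TRIB3 and PSAT1, fell by the p criterion alone, which 4.29% of all rows did. Among 15 fits that left out 1 array or replicate number, the p criterion was met in 13 for SLC7A11 and TRIB3 (lost without number 1 or 3), in 11 for PSAT1 (lost without any number or DG-75 AZD replicate 1), in 9 for CHAC1 (lost without any number, DG-75 AZD replicate 1 or SU-DHL-4 DMSO replicate 2 or 3) and in 4 for ATF4, those without DG-75 DMSO replicate 2, SU-DHL-4 DMSO replicate 3 or SU-DHL-4 AZD replicate 1 or 2. All these differences stayed below 0, between -0.98 and -0.25. Subtracting each array's median shifted the median of all rows by up to 0.13, the shift of Ento+AZD in SU-DHL-4.

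Ento alone called 0 of the 10 genes by limma in SU-DHL-4, with 2 of 10 at an unadjusted p under 0.05 (2196 of all rows), where 0.0117% of rows were called lower, and 0 of 10 in DG-75, with 0 at an unadjusted p under 0.05 (718 of all rows), where 0% were. Only SLC7A11 in SU-DHL-4, and SLC7A11 and DDIT3 in DG-75, had all Ento arrays below all DMSO arrays, against 9.33% and 3.56% of rows. The 10 differences under Ento were below 0 in SU-DHL-4, as for 62.4% of rows, and of these SLC3A2, SLC7A5, ATF4, DDIT3 and SESN2 turned to above 0 with array medians equalized.

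The counts for Ento+AZD against DMSO are a description, because results of this comparison were known when the genes were selected. SLC7A11 alone among the 10 had a change above 1 in size in each line. The Ento+AZD arrays lay below the DMSO arrays without overlap for 5 of 10 genes in SU-DHL-4, with 8 of 10 in DG-75, and this order was found for 16% and 14% of all rows. The median difference was -0.45 for SU-DHL-4 and -0.41 for DG-75, beside -0.08 and -0.07 over all rows, and without SLC7A11 it was -0.42 and -0.38.

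**Figure D3:**
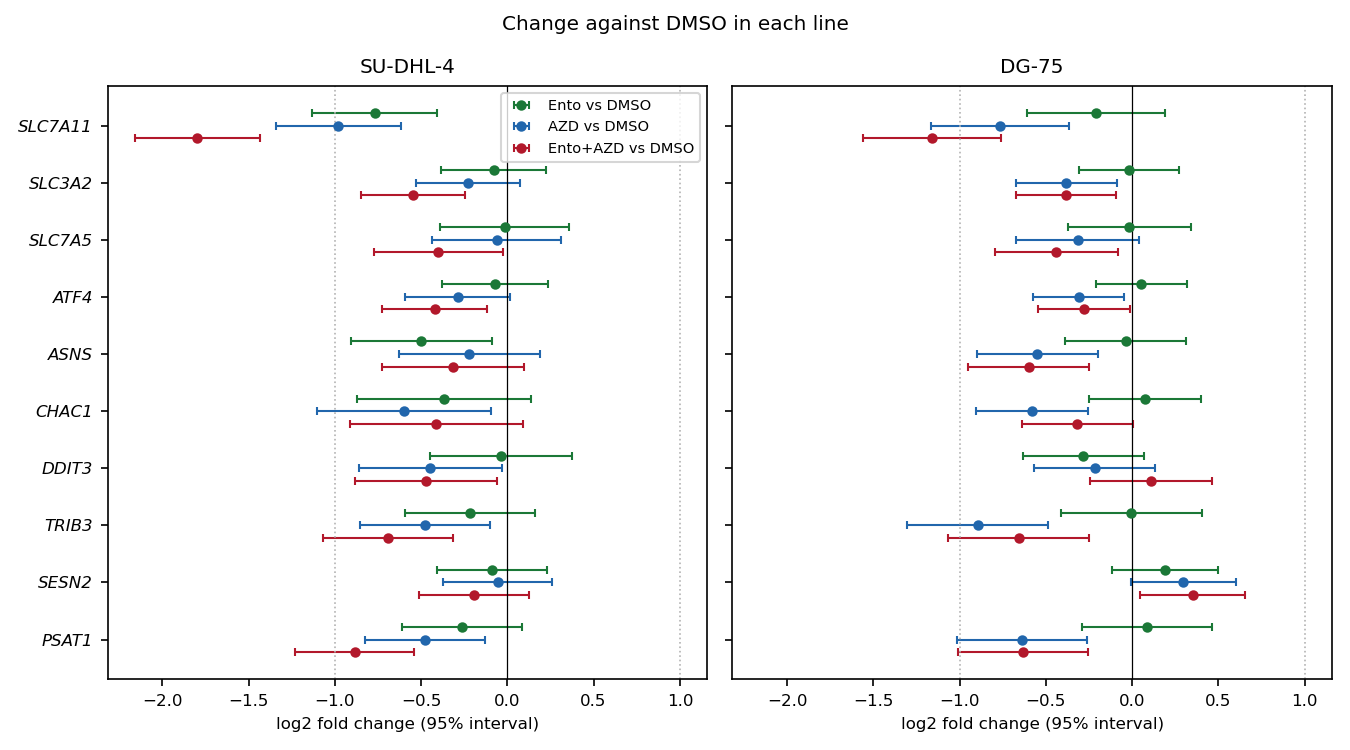
Log2 fold change against DMSO (horizontal axis) of the 10 genes in each line under Ento, AZD and Ento+AZD, as points with 95% intervals from the limma fit within each line. Dotted lines mark a log2 fold change of 1 in size, which SLC7A11 exceeded under Ento+AZD in both lines, at -1.80 and -1.16.

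Whether the inhibitors together did more than the sum of both was asked with the departure from additivity, the log2 change under Ento+AZD minus the changes under Ento and under AZD. It uses the Ento+AZD arrays too, as does the difference between the lines in that change, and neither is independent of how the genes were selected. For SLC7A11 it was -0.05 in SU-DHL-4 with a 95% interval from -0.56 to 0.46, and -0.19 in DG-75 with an interval from -0.75 to 0.38. By limma 0 of the 10 genes were called for a departure from additivity in either line, where 0% of rows were called in each, with an unadjusted p under 0.05 for 1 of 10 in DG-75 (672 of all rows) and none in the other line (1276 rows). That 1 gene was DDIT3 in DG-75, at 0.61 with an interval from 0.11 to 1.11 (adjusted p = 1.00). In SU-DHL-4 the values ran from -0.32 for SLC7A5 to 0.56 for CHAC1. The CHAC1 value is not an exact size, since CHAC1 lay near or below the array medians in this line.

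The changes were also compared between the lines, by subtracting that of DG-75 from that of SU-DHL-4. The SLC7A11 change was lower in SU-DHL-4 by 0.64 under Ento+AZD (95% interval -1.15 to -0.12, adjusted p = 0.626), 0.56 under Ento (interval -1.08 to -0.04, adjusted p = 1.00) and 0.21 under AZD (interval -0.73 to 0.30, adjusted p = 0.963). None of the 10 genes passed in any of these comparisons by limma, where Ento gave 0.00782% of rows called, AZD 0% and Ento+AZD 0.0352%. An unadjusted p under 0.05 was found in 1 of 10 with Ento, 0 with AZD and 3 with Ento+AZD, as for 1134, 1576 and 1664 of all rows. The 3 under Ento+AZD were SLC7A11, DDIT3 with -0.58 ± 0.25 (adjusted p = 0.713) and SESN2 with -0.54 ± 0.19 (adjusted p = 0.540).

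The lines differed before any inhibitor was added. In DMSO-treated cells, 5 of the 10 genes were called lower in SU-DHL-4 compared to DG-75, where 4.11% of all rows were, and 0 were called higher, where 3.1% of rows were. CHAC1 was lower by 2.20 on the log2 scale (SE 0.26, adjusted p = 1.04e-06), SLC7A5 by 1.82 (SE 0.18, adjusted p = 5.72e-08), PSAT1 by 1.79 (SE 0.18, adjusted p = 5.39e-08), SLC3A2 by 1.41 (SE 0.13, adjusted p = 1.48e-08) and ASNS by 1.37 (SE 0.19, adjusted p = 1.03e-05). SLC3A2 in SU-DHL-4 was thus at 37.7% of its DG-75 level. The size for CHAC1 is not exact, since its SU-DHL-4 mean of 5.18 was near those of KRT19 (5.17) and CSF1R (5.61), markers of other cell types, and no detection value sets it against background. SLC7A11 (-0.71 ± 0.18, adjusted p = 0.00548), ATF4 (-0.79 ± 0.18, adjusted p = 0.00237), TRIB3 (-0.78 ± 0.21, adjusted p = 0.00916) and SESN2 (-0.51 ± 0.14, adjusted p = 0.0109) passed the p criterion without the fold criterion. That of TRIB3 was lost without DG-75 DMSO replicate 2 (adjusted p = 0.0745) and that of SESN2 without SU-DHL-4 DMSO replicate 1 (adjusted p = 0.0519), while SLC7A11 and ATF4 kept it in 6 of 6 fits that left out 1 DMSO array. A lower level by the p criterion, whatever its fold, was seen for 9 of 10 genes, against 9.84% of all rows, the exception being DDIT3 at -0.18 ± 0.24 (adjusted p = 0.711). The 5 calls remained in each of 6 fits that left out 1 DMSO array. Over all treatments, every DG-75 array lay above every SU-DHL-4 array for 7 of the 10 genes, which held for 5.31% of all rows, and the exceptions were SLC7A11, TRIB3 and DDIT3.

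**Figure D4:**
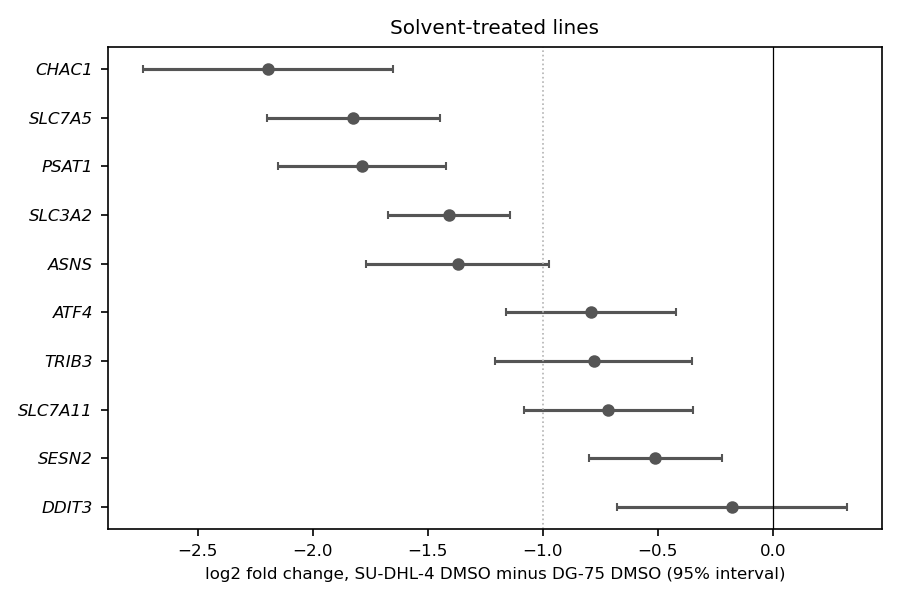
Log2 fold change between the DMSO-treated lines, SU-DHL-4 minus DG-75 (horizontal axis), for the 10 genes in order of size, as points with 95% intervals from limma. All points lie below 0, from -2.20 for CHAC1 to -0.18 for DDIT3, and the DDIT3 interval alone crosses 0.

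Which genes moved like SLC7A11 was described by the correlation of each row with SLC7A11 over the 24 arrays, after subtraction of the mean of each line and replicate number. Arrays of a group share their treatment, so the 24 points are not independent. Among the other 9 genes r was 0.88 for PSAT1, 0.86 for SLC3A2, 0.82 for ATF4, 0.74 for SLC7A5, 0.72 for TRIB3, 0.59 for ASNS and 0.57 for CHAC1. In the same order, 99.7%, 99.4%, 98.8%, 96.8%, 96.0%, 90.9% and 89.5% of all rows had a lower r with SLC7A11. Within SU-DHL-4 PSAT1 was the highest with 0.95, whereas within DG-75 ASNS (0.89), SLC7A5 (0.84) and ATF4 (0.84) were above PSAT1 (0.83). ASNS had an r of 0.36 in SU-DHL-4. DDIT3 had 0.67 in SU-DHL-4, with -0.30 in DG-75, and SESN2 0.51 and -0.73. Over the 45 pairs of the 10 genes the median r was 0.58, and the highest, 0.95, joined PSAT1 with SLC3A2. In the whole table the rows most like SLC7A11 were H4C4 (0.93), a replication-dependent histone gene, ASPM (0.92), a spindle pole protein, AURKA (0.92), a mitotic kinase, C1orf54 (0.92) and CDT1 (0.91), a replication licensing factor. The most opposed were SLC2A11 (-0.92), a sugar transporter, TTLL3 (-0.91) and XBP1 (-0.91), the transcription factor of the IRE1 arm of the unfolded protein response.

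**Figure D5:**
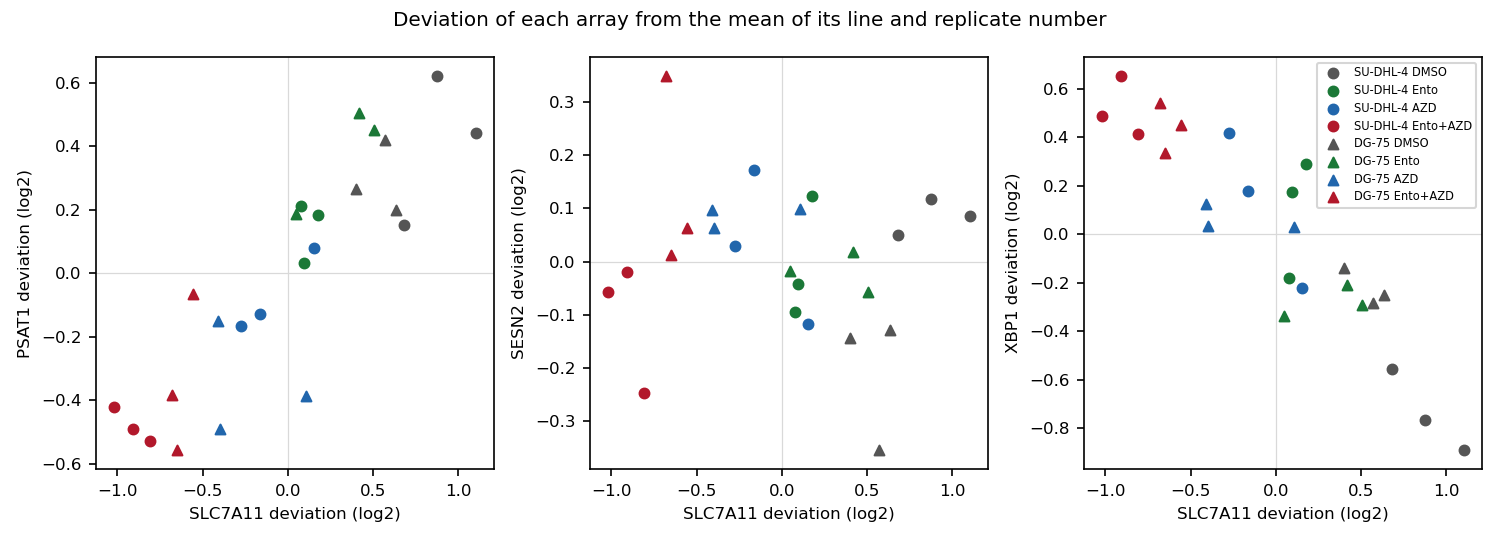
Deviation in log2 units of PSAT1, SESN2 and XBP1 (vertical axes) against that of SLC7A11 (horizontal axis) in each of 24 arrays, after subtraction of the mean of its line and replicate number. PSAT1 rises along SLC7A11 (r = 0.88) and XBP1 falls along it (r = -0.91), while SESN2 runs upward in SU-DHL-4 (circles) and downward in DG-75 (triangles).

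The neighbouring pathways were read from lists of other genes. These lists, too, were chosen with earlier results known, so their counts describe the genes and are no independent evidence for a pathway. Of 23 other genes induced through ATF4, AZD called 2 lower in DG-75, VLDLR, a lipoprotein receptor (from 7.94 to 6.77, -1.17 ± 0.19, adjusted p = 0.0471) and EIF4EBP1, the translation repressor 4E-BP1 (from 9.14 to 8.13, -1.01 ± 0.18, adjusted p = 0.04997), and 0 in SU-DHL-4, where 5 of the 23 had an unadjusted p under 0.05, as did 2935 of all 25575 rows. Called lower among all rows were 0.164% in DG-75, with 0.18% in SU-DHL-4. Both calls were lost in each of 9 fits that left out 1 array or number, with changes from -1.36 to -0.90 for VLDLR and from -1.16 to -0.73 for EIF4EBP1 over all alternatives. The median difference of these 23 genes was -0.41 in DG-75 and -0.23 in SU-DHL-4, beside -0.06 and -0.08 over all rows. Over both lines, where 0.25% of rows were called lower, AZD called 1 of the 23, CTH, cystathionine gamma-lyase, the last enzyme of cysteine synthesis from methionine (-1.04 ± 0.16, adjusted p = 0.00162), a call lost without replicate numbers 1 or 3, DG-75 AZD replicate 1 or SU-DHL-4 DMSO replicate 3, with changes from -1.16 to -0.90 over all alternatives. In SU-DHL-4 CTH started from a DMSO mean of 4.64, below the array medians, so that its values over both lines are not exact sizes and their place against the fold criterion is uncertain.

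Under Ento+AZD, 3 of the 23 ATF4-induced genes were called lower in DG-75, where 0.708% of rows were: ALDH1L2, a mitochondrial folate enzyme (from 5.21 to 3.96, adjusted p = 0.0203), VLDLR (from 7.94 to 6.82, adjusted p = 0.0214) and CTH (from 7.02 to 5.99, adjusted p = 0.0341). The ALDH1L2 call was lost without any array of number 1 or 2, that of VLDLR in all fits but the one without Ento+AZD replicate 3, and that of CTH in each of 9 fits, with changes between -1.54 and -0.91 among the 3 genes over all alternatives. Against Ento alone in DG-75, where 0.598% of rows were called lower, 2 of the 23 were, by limma. They were ALDH1L2 (-1.82 ± 0.20, adjusted p = 0.0121) and VLDLR (-1.28 ± 0.19, adjusted p = 0.0199), calls that remained in 3 and 2 of 9 fits. The sizes for ALDH1L2 are not exact, since 3.96 lay below the array medians. In SU-DHL-4, where 1.09% of rows were called lower, 1 of the 23 was, DDIT4, an mTORC1 inhibitor also known as REDD1 (from 9.41 to 8.22, adjusted p = 0.0355), a call that remained only without replicate number 1 and whose change ran from -1.46 to -0.95. None of the 15 eIF2 alpha kinases and eIF2 or eIF2B subunits was called in either line by limma, with an unadjusted p under 0.05 for 3 in SU-DHL-4, against 2 in DG-75, beside 3584 and 4096 of all 25575 rows.

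Of 16 genes of cysteine, glutathione and thioredoxin enzymes, 14 had a difference below 0 under Ento+AZD in SU-DHL-4, beside 64% of all rows, and 13 in DG-75, beside 61.4%. Their median differences were -0.36 and -0.46, beside -0.08 and -0.07 over all rows. CBS, which makes cystathionine, was called lower in SU-DHL-4 (8.02, 7.99 and 8.22 under DMSO, 7.27, 6.40 and 7.19 under Ento+AZD, -1.13 ± 0.16, adjusted p = 0.00597). That call was lost without replicate numbers 2 or 3, DMSO replicate 2 or Ento+AZD replicate 2, and its change lay between -1.31 and -0.89 over all alternatives. Over both lines, where 0.813% of rows were called lower, CTH (-1.0002 ± 0.16, adjusted p = 0.000387) and GCLM (-1.10 ± 0.24, adjusted p = 0.00505) were called lower. GCLM is the modifier subunit of the first enzyme of glutathione synthesis. Both genes were lower in 6 of 6 same-numbered differences, as were 11.8% of all rows. Both calls missed the fold criterion with quantile normalization or with array medians subtracted (-0.89 and -0.99). The GCLM call was lost without replicate number 2 (-0.92), and CTH, at the fold criterion, remained in 5 of 15 fits that left out arrays, those without replicate number 2, DG-75 DMSO replicate 3, SU-DHL-4 DMSO replicate 2, or SU-DHL-4 Ento+AZD replicate 1 or 2. Of the 15 genes of the NRF2 pathway GCLM alone was called over both lines, and of 12 iron and lipid genes of ferroptosis 0 were called by limma in either line or over both, with an unadjusted p under 0.05 for 2 in SU-DHL-4, 4 in DG-75 and 5 over both, beside 3584, 4096 and 5384 of all 25575 rows.

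Other lists held genes that moved upward. XBP1 was called higher under Ento+AZD in SU-DHL-4, with 5.38, 4.98 and 4.43 under DMSO and 6.42, 6.16 and 5.98 under Ento+AZD (1.25 ± 0.20, adjusted p = 0.00811), the only one of 18 genes of endoplasmic reticulum chaperones and the IRE1 and ATF6 arms to be called, where 0.102% of rows were called higher. It lost the call without DMSO replicate 2 or 3 or replicate numbers 2 or 3, and its change ran from 1.11 to 1.42. The size for XBP1 is not exact, since its DMSO mean of 4.93 lay near the array medians. SESN3, sestrin 3, was called higher in DG-75, with 5.33, 4.32 and 5.73 under DMSO and 7.02, 6.01 and 7.13 under Ento+AZD (1.59 ± 0.29, adjusted p = 0.0221), where 0.125% of rows were, and over both lines (1.06 ± 0.24, adjusted p = 0.00654), where 0.043% were. The DG-75 call remained only without Ento+AZD replicate 2, with changes from 1.29 to 1.86. The call over both lines remained in 9 of 15 fits, and was lost without replicate number 2 or 3, DG-75 DMSO replicate 1 or 2, or DG-75 Ento+AZD replicate 1 or 3. For SESN3 too the DG-75 DMSO mean of 5.12 lay near the array medians, and neither size is exact. Of the 14 genes of the sestrin and amino acid sensing list 1 was called lower in SU-DHL-4, where 1.09% of rows were, RRAGD, a Rag GTPase (from 6.46 to 5.44, -1.02 ± 0.19, adjusted p = 0.0156), which also remained only without Ento+AZD replicate 2, with changes from -1.17 to -0.83. Of 14 other amino acid transporters 0 were called for Ento+AZD against DMSO in either line by limma. In each line 6 had an unadjusted p under 0.05, beside 3584 and 4096 of all 25575 rows. Against Ento alone in DG-75, where 0.598% of rows were called lower, 1 was, SLC6A9 (-1.05 ± 0.20, adjusted p = 0.0286). That call remained in 1 of 9 fits that left out 1 array or number.

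Between the DMSO-treated lines, 7 of the 23 ATF4-induced genes were called lower in SU-DHL-4 (4.11% of rows) and 0 higher (3.1% of rows). PHGDH, the first enzyme of serine synthesis, was at 4.43, 4.82 and 3.93 in SU-DHL-4 and at 9.84, 9.93 and 9.68 in DG-75, a difference of -5.43 ± 0.21 (adjusted p = 3.26e-15). VLDLR differed by -4.77 ± 0.34 (adjusted p = 2.42e-10) and ATF5, a stress-induced factor related to ATF4, by -2.88 ± 0.18 (adjusted p = 3.53e-11). CTH (-2.37 ± 0.24, adjusted p = 6.57e-08), CBS (-1.72 ± 0.22, adjusted p = 3.01e-06) and XBP1 (-2.41 ± 0.23, adjusted p = 2.89e-08) were lower in SU-DHL-4 as well. Higher in SU-DHL-4 were EIF2AK4, which encodes the amino acid sensing eIF2 alpha kinase GCN2 (1.37 ± 0.15, adjusted p = 2.84e-07), IMPACT, an inhibitor of GCN2 (2.29 ± 0.28, adjusted p = 1.60e-06), and GLRX, glutaredoxin (1.83 ± 0.16, adjusted p = 9.07e-09). The sestrins were split, with SESN1 lower (-2.77 ± 0.26, adjusted p = 1.79e-08) and SESN3 higher (2.68 ± 0.28, adjusted p = 1.61e-07) in SU-DHL-4. The sizes for PHGDH, VLDLR, CTH, XBP1, SESN1, IMPACT and SESN3 are not exact, since the means of their lower groups, at 4.39, 3.17, 4.64, 4.93, 4.22, 2.81 and 5.12, lay near or below the array medians, where CD3E (4.19) and CD3D (3.34 in DMSO-treated SU-DHL-4 cells) were also found. Each of these calls remained in the 6 fits that left out 1 DMSO array. Also called were SLC6A9, EDEM1, ERN1, TFRC and NQO1, lower in SU-DHL-4, and SLC7A6, SLC43A2, ALOX5 and RRAGD, higher in SU-DHL-4. Of these further genes, SLC7A6, SLC43A2 and TFRC kept the call in 4 of the 6 fits and RRAGD in 5, the others in each.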

How the data were processed

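The deposited table held 25575 rows of expression values, taken as log2 as RMA gives them, for 24 Clariom D arrays. The authors normalized the arrays by RMA, which equalizes probe distributions between arrays and can hide a global shift of RNA, and mapped probes to gene symbols. The genome build of that mapping is not given in the sources used here. All per-sample columns were assigned to samples by name. Linear models were fitted to all rows with limma 3.58.1 in R 4.3.3, within each line (12 arrays), over both lines and between lines. The study's model has a batch term whose levels are not given in the sources used here, and the replicate number was used as a block in its place. Genes were called at an adjusted p below 0.05 (Benjamini-Hochberg) and a log2 fold change above 1 in size. Precision is limited by 3 arrays per group, and the arrays give no detection value. The 10 genes and all lists were chosen with earlier results of these data known. Named besides the 10 genes were up to 3 called genes per list and comparison with the smallest adjusted p, and the 5 genes most like and 3 most opposed to SLC7A11. Scripts were tested on simulated data. Alternatives were the fit without block, quantile normalization, median subtraction, other samples in the fit, no fold minimum, and each array or replicate number left out.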

Additional observations from a re-analysis of the deposited data

Results flagged for a closer look

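VLDLR had all 3 same-numbered AZD differences above 0 in SU-DHL-4 (mean 0.09, at a level near 3.17 under DMSO) and all 3 below 0 in DG-75 (mean -1.17). At 3.17 VLDLR lay below the T-cell marker CD3D (3.34 in the same group), so a fall in SU-DHL-4 could hardly be measured and the sign there says little. The difference between the lines was 1.26 ± 0.32 (SE) on the log2 scale, which is not an exact size, with an adjusted p of 0.302 in limma, which missed the threshold.

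SESN2 had all 3 same-numbered Ento+AZD differences below 0 in SU-DHL-4 (mean -0.19) and all 3 above 0 in DG-75 (mean 0.35). The difference between the lines was -0.54 ± 0.19, with an adjusted p of 0.540 in limma, which missed the threshold too. It uses the Ento+AZD arrays and is not independent of how the genes were selected.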

How the results depend on the processing

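With no fold minimum the count of the 10 genes called in DG-75 was 1 for Ento+AZD against Ento (1.44% of all rows were lower by this rule), and elsewhere 1 for AZD (0.207%) and 2 for Ento+AZD (2.06%) in SU-DHL-4, 5 for AZD (4.29%) and 6 for Ento+AZD (7.03%) over both lines, and 9 between the DMSO-treated lines (9.84%). The count of 1 for Ento+AZD against Ento in SU-DHL-4, SLC7A11, became 0 with no replicate block, with quantile normalization and with array medians subtracted. The counts for Ento+AZD against DMSO or Ento are a description, as the genes were selected with Ento+AZD results known. When arrays or replicate numbers were left out, the count ranged from 0 to 1 for Ento+AZD in DG-75, 0 to 2 for Ento+AZD in SU-DHL-4, 0 to 0 for Ento+AZD against Ento in SU-DHL-4 and 5 to 6 between the DMSO-treated lines. Over all rows the count of calls ran from 0 to 604 for Ento+AZD in SU-DHL-4 (304 as reported) and from 0 to 611 in DG-75 (213 as reported). No called value changed sign. Same-numbered arrays deviated together only in part, with a median r of 0.15 in SU-DHL-4 (12 of 18 pairs over 0.1) and 0.04 in DG-75 (7 of 18), beside -0.07 (1 of 36) and -0.01 (11 of 36) between arrays of different numbers. In SU-DHL-4 this hints at pairing, but not every pair was over 0.1, and 9 of 12 arrays in SU-DHL-4, with 8 of 12 in DG-75, correlated best with their own number. The numbers are not shown to pair the samples in DG-75, and only in part in SU-DHL-4. The replicate block changed no other count for the 10 genes. Of the named genes outside the 10, the calls of VLDLR under AZD and ALDH1L2 under Ento+AZD in DG-75, and those of DDIT4, XBP1, CBS and RRAGD under Ento+AZD in SU-DHL-4, were lost with no replicate block. Quantile normalization and median subtraction each ended the AZD calls of VLDLR and EIF4EBP1 in DG-75 and of CTH over both lines, and the Ento+AZD calls of CTH in DG-75, of DDIT4, CBS and RRAGD in SU-DHL-4, and of CTH and GCLM over both lines, and quantile normalization alone that of VLDLR under Ento+AZD in DG-75. The alternative of other rows of the same symbol was not run, since each gene had 1 row, and leaving out the other treatments gives no other fit for the departure from additivity. The causes were not tested.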

Other observations

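The 5 genes whose levels ran most like SLC7A11, H4C4, ASPM, AURKA, C1orf54 and CDT1, had Ento+AZD levels below DMSO by log2 differences from -1.85 to -1.33 in SU-DHL-4, against -1.05 to -0.77 in DG-75. The 3 genes that ran most opposed to it, SLC2A11, TTLL3 and XBP1, had differences from 0.54 to 1.25 in SU-DHL-4, against 0.58 to 0.67 in DG-75. Because these genes were chosen for their likeness to SLC7A11 over the same arrays, the values are a description without a test. In SU-DHL-4 the sizes for C1orf54 (-1.85) and XBP1 (1.25) are not exact. The C1orf54 mean under Ento+AZD, 4.20, lay below the array medians, and the XBP1 mean under DMSO, 4.93, lay near them.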
